A study of Arabidopsis thaliana with 6 samples.

Results

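QQS and 9 genes of starch synthesis and breakdown were followed in a comparison of the Arabidopsis thaliana line epiRIL12 with the accession Col, and all 10 genes were found by locus name among the 29670 loci measured. They were QQS (AT3G30720), PGM1 (AT5G51820), ADG1 (AT5G48300), APL1 (AT5G19220), SS4 (AT4G18240), GBSS1 (AT1G32900), SBE2.2 (AT5G03650), ISA1 (AT2G39930), SEX1 (AT1G10760) and SEX4 (AT3G52180). RNA of 3 epiRIL12 samples and of 3 Col samples was measured on 6 Affymetrix arrays, and the level of a gene is given as the log2 value the authors deposited. Plants of both genotypes grew under long days without treatment to an age of 14 days. epiRIL12 is a single epigenetic recombinant inbred line, so a difference from Col belongs to that line; by general knowledge of such lines it carries chromosome segments from a parent that had lost DNA methylation, and which segments it carries was not analysed here.

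Leaves store starch in the chloroplast by day and break it down at night. ADP-glucose is made first, starch synthases join its glucose units into chains, branching and debranching enzymes shape the granule, and phosphate groups added to and removed from the granule surface open it for breakdown. QQS is an orphan gene, known in A. thaliana only, that encodes a small protein. Plants with less QQS RNA store more leaf starch, the protein binds the transcription factor subunit NF-YC4, and the gene is known for expression that varies with DNA methylation of repeats near it and is raised in mutants that lose this methylation.

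None of the 10 genes passed the test for a difference between the genotypes over all loci. With limma and Benjamini-Hochberg adjustment over 29670 loci, 0 of the 10 were called at an adjusted p under 0.05, where 0.974% of all loci were called, and the adjusted p-values of the members ran from 0.473 to 0.994. At an unadjusted p under 0.05 there were 2 members, QQS and SS4, both lower in epiRIL12, where 3.72% of all loci were lower at that limit. The authors' deposited table gave 3 members an unadjusted p under 0.05, where 6.55% of all loci had one, and 0 after adjustment, where 0.465% of all loci passed. Since the labels leave unsaid whether samples of one genotype were grown apart, the p-values speak of the spread among these arrays, whose small number limits the precision.

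QQS had the largest difference and the largest spread of the 10. Its log2 level was 6.20, 7.18 and 5.69 on the epiRIL12 arrays numbered 1 to 3, against 7.55, 7.35 and 8.40 on the Col arrays. Every epiRIL12 value was thus below every Col value, but the nearest values, 7.18 in epiRIL12 and 7.35 in Col, were 0.17 apart, while the values ranged over 1.49 within epiRIL12 and 1.05 within Col. The level averaged 6.36 ± 0.76 in epiRIL12 and 7.77 ± 0.56 in Col (SD, n = 3 each), a log2 difference of -1.41 (SE 0.43, limma 95% interval -2.44 to -0.38), or 2.65-fold lower in epiRIL12. The limma adjusted p was 0.476 (0.0147 unadjusted), and the largest unadjusted p among called loci was 0.000485. An exact two-sided permutation test of the 6 values gave p = 0.1, the smallest that 3 arrays against 3 allow. In the authors' deposited table the log2 difference of QQS was -1.46, with an unadjusted p of 0.0629.

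**Figure D1:**
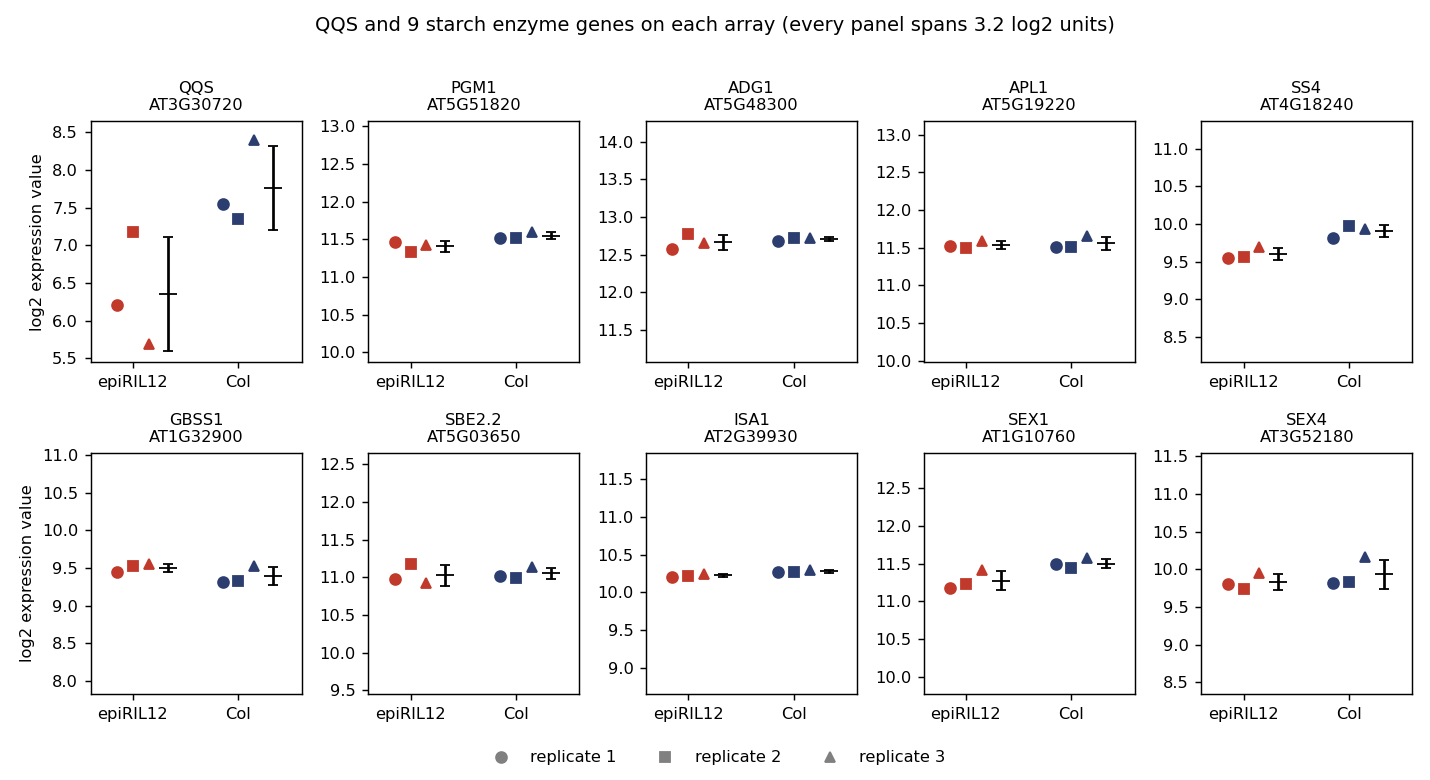
Log2 expression values of QQS and the 9 starch enzyme genes on each array (symbols for replicates 1 to 3, epiRIL12 left and Col right in each panel, black bars for the mean ± SD, n = 3). All panels span the same number of log2 units, so the spread of QQS within each genotype (1.49 in epiRIL12 and 1.05 in Col) can be set against that of the enzymes.

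The size of the QQS difference depended on which arrays were used. Those numbered 3 held both its lowest epiRIL12 value and its highest Col value. Over all loci the values on these arrays were spread a little more widely, with an SD of 2.40 in epiRIL12 and 2.37 in Col, against 2.32 on each of the other arrays. With quantile normalization, which gives all arrays 1 spread over all loci, the log2 difference of QQS was -1.39. Other effects of an array or sample on QQS were not tested. Without both arrays numbered 3 the log2 difference of QQS was -0.76 (limma adjusted p = 0.886), a setting added after seeing the values. Since it drops the lowest epiRIL12 and the highest Col value, a smaller difference was bound to follow. With 1 array left out at a time it ran from -1.07, without epiRIL12 replicate 3, to -1.82, without epiRIL12 replicate 2 (adjusted p = 0.192). The difference stayed below 0 and uncalled in all 14 alternative settings.

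Within each genotype QQS was among the most variable loci on the arrays. Its SD between replicate arrays, pooled over the genotypes, was 0.66, and 1.47% of all loci had one at least as large. Both of its SDs were reached by 0.408% of loci. The 9 enzyme genes had pooled SDs of 0.02 to 0.16, with a median of 0.08. The median was 0.17 over all loci and 0.10 over loci with a mean level of 9 or more, as all 9 enzymes have. A difference as low as that of QQS was rare: 13 loci, QQS included, had a log2 difference of -1.41 or below, and 8 of these were called. At about that size limma can call a locus only if its spread is smaller than that of QQS. LCR30, a defensin-like gene, was called at -1.54 with a limma adjusted p of 0.00705.

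**Figure D2:**
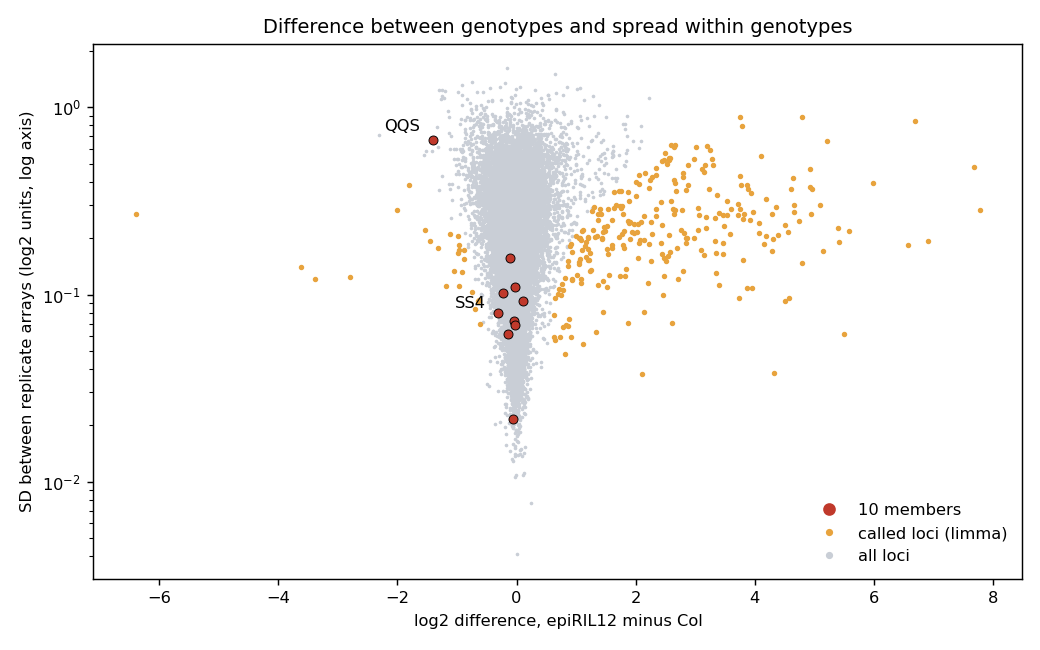
Log2 difference between epiRIL12 and Col (horizontal axis) and pooled SD between replicate arrays (vertical axis, log scale) for all loci in grey, loci called by limma in orange and the 10 members in red. QQS lies at -1.41 and an SD of 0.66, and the 9 enzymes lie between -0.31 (SS4) and 0.11 with SDs of 0.02 to 0.16.

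The neighbours of QQS on chromosome 3 had no called difference either. Of the 5 measured loci on each side in locus order, 9 are annotated as pseudogenes and 1, GDU6, as protein-coding, and none overlaps QQS in the annotation. Most stood near or below the lower quartile of the arrays, which was 4.71 to 4.90. AT3G30719, the pseudogene next to QQS, had a higher mean level in epiRIL12 than in Col. It stood at 6.22, 5.44 and 6.25 in epiRIL12, against 5.30, 4.85 and 5.45 in Col. One Col value exceeded one epiRIL12 value, so the groups overlapped by a small margin. The log2 difference was 0.77 (SE 0.26, limma adjusted p = 0.575), and with the authors' deposited table it was 0.91. On the epiRIL12 arrays, the one with the lowest AT3G30719 value, replicate 2, was the one with the highest QQS value. The Col arrays went the other way, with replicate 3 highest and replicate 2 lowest for both loci. The other neighbours had log2 differences from -0.18 at AT3G30724 to 0.34 at GDU6, with adjusted p-values above that of AT3G30719.

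**Figure D3:**
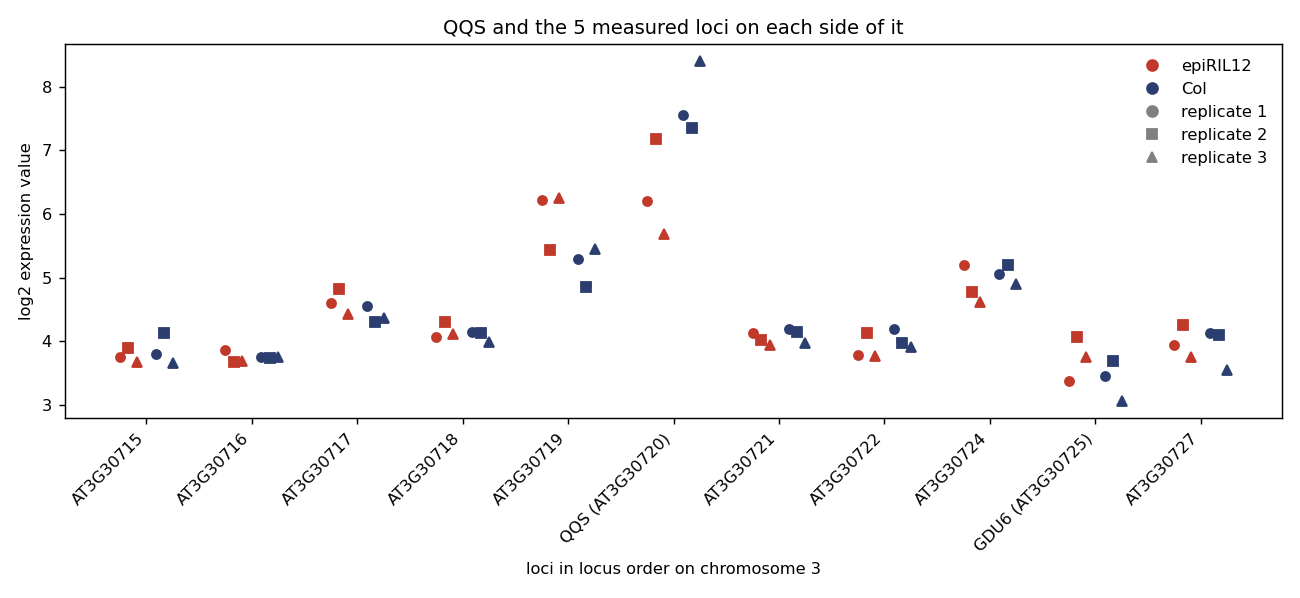
Log2 expression values of QQS and the 5 measured loci on each side of it in locus order, with epiRIL12 in red on the left and Col in blue on the right of each position and symbols for replicates 1 to 3. QQS is lower in epiRIL12 on all 3 arrays, AT3G30719 beside it has a log2 difference of 0.77, and the others lie between -0.18 and 0.34.

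Among 3610 other loci whose values ranged over at least 1 log2 unit, those with the pattern most like QQS over the 6 arrays were AT1G13609 (Pearson's r = 0.991), AT3G44428 (0.986) and AT4G38870 (0.979). All are annotated as protein-coding. These correlations describe 6 arrays of 2 genotypes and were picked as the highest of many. The log2 differences were -0.60 for AT1G13609, -0.59 for AT3G44428 and -0.62 for AT4G38870, and none was called (limma adjusted p = 0.644, 0.303 and 0.728).

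The genes that supply ADP-glucose had log2 differences between -0.14 and -0.02. PGM1, the plastid phosphoglucomutase that makes glucose 1-phosphate, stood at 11.47, 11.33 and 11.42 in epiRIL12, against 11.52, 11.52 and 11.60 in Col. Its epiRIL12 values all lay below its Col values, by a gap of 0.048, and the log2 difference was -0.14 (SE 0.09, 95% interval -0.35 to 0.07). ADG1 encodes the small subunit of ADP-glucose pyrophosphorylase, the committed step of starch synthesis. It stood at 12.57, 12.77 and 12.66 in epiRIL12, against 12.68, 12.72 and 12.72 in Col, so that the Col values lay within the epiRIL12 range. The log2 difference of ADG1 was -0.04 (SE 0.09, interval -0.26 to 0.18). APL1, the main large subunit of that enzyme in leaves, stood at 11.52, 11.50 and 11.59 in epiRIL12, against 11.51, 11.51 and 11.65 in Col. These groups overlapped as well, and the log2 difference was -0.02 (SE 0.09, interval -0.24 to 0.20).

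Of the chain-building genes, SS4 had the lower level in epiRIL12 and GBSS1 had not. SS4 is the starch synthase needed to start new granules. It stood at 9.55, 9.56 and 9.69 in epiRIL12, against 9.82, 9.97 and 9.93 in Col. The groups were apart by 0.13, and the values within a genotype ranged over 0.14 in epiRIL12 and 0.16 in Col. SS4 averaged 9.60 ± 0.08 in epiRIL12 and 9.91 ± 0.08 in Col (SD, n = 3 each), a log2 difference of -0.31 (SE 0.09, interval -0.53 to -0.08), or 1.24-fold lower, with a limma adjusted p of 0.473 (0.0144 unadjusted). In the authors' deposited table SS4 had a log2 difference of -0.33 and an unadjusted p of 0.00774. Leaving out single arrays gave SS4 differences from -0.28 to -0.35. GBSS1, the granule-bound synthase that makes amylose, was the 1 member with a difference above 0. It stood at 9.45, 9.52 and 9.55 in epiRIL12, against 9.31, 9.33 and 9.53 in Col, with overlapping groups and a log2 difference of 0.11 (SE 0.10, interval -0.12 to 0.35).

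The genes that shape the chains differed little. SBE2.2, a branching enzyme, stood at 10.97, 11.18 and 10.93 in epiRIL12, against 11.02, 10.99 and 11.14 in Col, with overlapping groups and a log2 difference of -0.02 (SE 0.10, interval -0.28 to 0.23). ISA1, the isoamylase that trims branches while the granule forms, stood at 10.20, 10.22 and 10.25 in epiRIL12, against 10.27, 10.27 and 10.30 in Col. Its groups were apart by 0.017, and its pooled SD of 0.022 was among the lowest 0.179% of all loci, so that a log2 difference of -0.05 (SE 0.08, interval -0.25 to 0.14) parted them. In the authors' deposited table this difference had an unadjusted p of 0.0264. The annotation places other genes over parts of ISA1 and of APL1, and since the double-stranded target kept no strand, their RNA cannot be told apart there.

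Of the breakdown genes, SEX1 was lower on every epiRIL12 array and SEX4 overlapped. SEX1, the glucan, water dikinase that phosphorylates starch, stood at 11.17, 11.23 and 11.42 in epiRIL12, against 11.50, 11.44 and 11.57 in Col. The gap between the groups was 0.021, less than the range within either, and the log2 difference was -0.23 (SE 0.10, interval -0.47 to 0.02, limma adjusted p = 0.749). The authors' deposited table gave SEX1 -0.23 and an unadjusted p of 0.0460. SEX4, the phosphatase that removes those phosphates, stood at 9.81, 9.73 and 9.95 in epiRIL12, against 9.82, 9.83 and 10.16 in Col. Its log2 difference was -0.10 (SE 0.13, interval -0.41 to 0.20), and it was 0.0068 without Col replicate 3.

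Of the 10 members, 9 had a log2 difference below 0, and in 5 (QQS, PGM1, SS4, ISA1 and SEX1) all epiRIL12 values lay below all Col values. Over all loci 56.6% of differences were below 0, and 6.89% of loci had all epiRIL12 values below all Col values. Among the 6201 loci with a mean level of 9 or more, as all 9 enzymes have, these shares were 51.7% and 6.21%. The median difference was -0.08 over the 10 members and -0.05 over the 9 enzymes, against -0.02 over all loci. Col replicate 3 moved with this direction: it held the highest Col value in 9 of the 10 members, in 41.8% of the loci with a mean level of 9 or more and in 31.5% of all loci. Without it 6 of the 10 differences were below 0, where 56.3% of all loci were in that setting. Since it held the highest Col value in 9 of the 10, those 9 differences were bound to rise. With any other array left out, 7 to 9 of the 10 were below 0. Replicate 1 held the lowest epiRIL12 value in 5 of the 10, in 37.8% of loci with a mean level of 9 or more and in 31.1% of all loci. With quantile normalization the counts were likewise 9 below 0 and 5 apart. The 95% intervals of the 9 enzymes lay between -0.53 and 0.35, and these are bounds for 1 gene at a time.

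**Figure D4:**
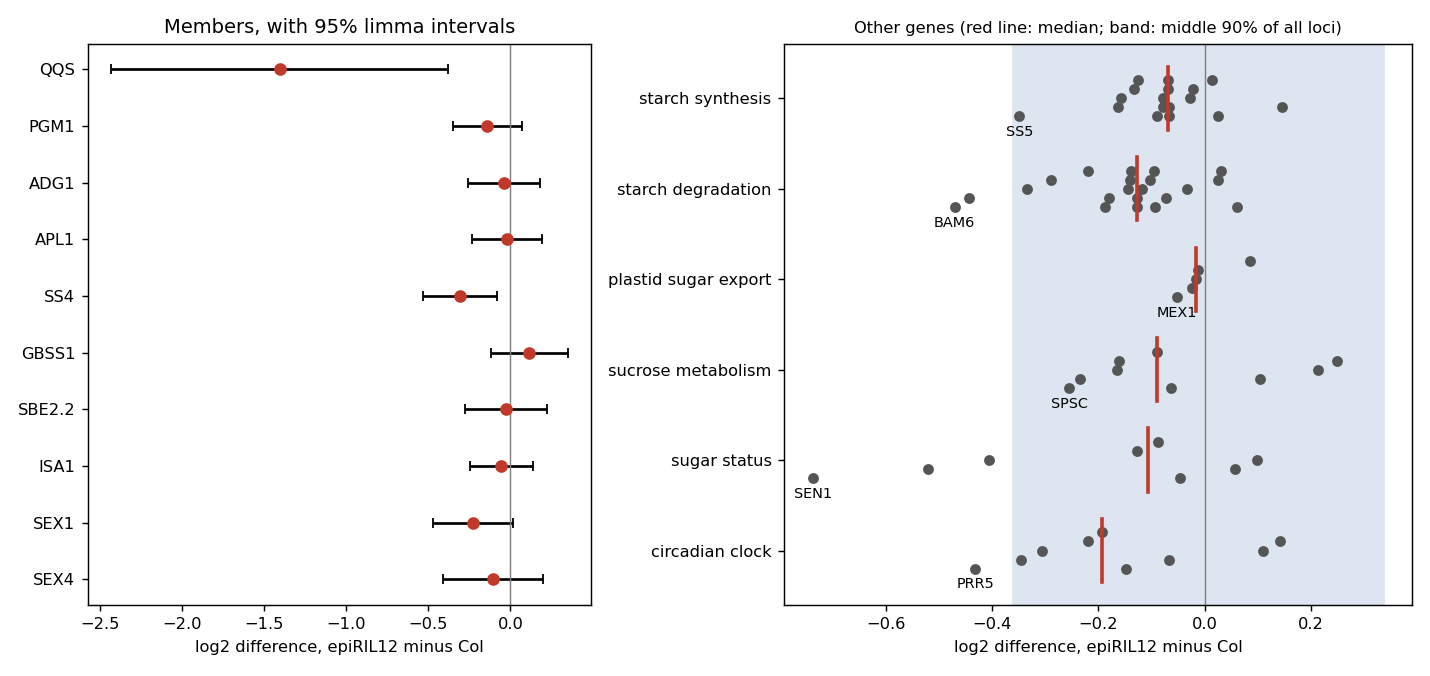
Left, log2 difference (epiRIL12 minus Col) of the 10 members with limma 95% intervals; right, the differences of 69 other genes by list, with the median of each list as a red line and the middle 90% of all loci as a band. QQS stands apart at -1.41, the 9 enzymes lie between -0.31 and 0.11, and the list medians lie between -0.19 and -0.02.

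The other genes of starch and sugar metabolism had no called difference, with log2 differences from -0.74 to 0.25. Of 60 further genes, all measured, 0 were called by limma (0.974% of all loci were). An unadjusted p under 0.05 was found for 3, all lower in epiRIL12, near the 3.72% of all loci lower at that limit. Of the 60, 7 had an unadjusted p under 0.05 in the authors' deposited table (6.55% of all loci did) and 0 an adjusted one. Differences were below 0 in 48 of the 60 (80%, against 56.6% of all loci), 12 had all epiRIL12 values below all Col values (6.89% of all loci did) and 1 had them all above (5.19% of all loci did). The median difference was -0.09, and with 1 array left out at a time 43 to 48 of the 60 were below 0. Col replicate 3 held the highest Col value in 34 of the 60 (56.7%, against 31.5% of all loci). The lowest epiRIL12 value was held by replicate 1 in 33 (55%, against 31.1% of all loci). Among loci with a mean level of 9 or more, where only part of the 60 stand, these shares were 41.8% and 37.8%. At that level 51.7% of differences were below 0, and 6.21% of loci had all epiRIL12 values below all Col values.

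Of 17 other starch synthesis genes, 14 had a difference below 0, with a median of -0.07. They ran from -0.35 for SS5, a synthase-like protein that acts in granule initiation, to 0.14 for APL4, another large subunit of ADP-glucose pyrophosphorylase. Those apart between the genotypes were the synthases SS1 (-0.13) and SS3 (-0.16) and the branching enzyme SBE2.1 (-0.08), all lower in epiRIL12.

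Of 21 other genes listed under starch breakdown, 18 had a difference below 0, with a median of -0.13. The highest value was 0.06 for BAM4, a member of the beta-amylase family. The list took in that family as a whole, BAM7 and BAM8 included, and whether each member breaks down starch was not tested. BAM6, another beta-amylase gene, had the lowest, and stood at 6.97, 7.19 and 7.01 in epiRIL12, against 7.55, 7.20 and 7.83 in Col. The groups were apart only by the small distance between 7.19 in epiRIL12 and 7.20 in Col. Its log2 difference of -0.47 was not called (SE 0.17, limma adjusted p = 0.616). BAM8 (-0.12), the phosphatase-like LSF1 (-0.19), the amylase AMY3 (-0.13), the disproportionating enzyme DPE1 (-0.10) and the phosphorylase PHS1 (-0.14) were the others apart, each lower in epiRIL12. BAM5, a beta-amylase gene, and AMY1, an alpha-amylase gene, varied widely between arrays, with SEs of 0.53 and 0.44 on differences of -0.29 and -0.44.

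The transporters that move sugars across the plastid envelope lay closest to 0. Their 5 differences ran from -0.05 for the maltose exporter MEX1 to 0.09 for the glucose 6-phosphate transporter GPT1. In sucrose metabolism, 6 of 9 differences were below 0, from -0.25 for the sucrose phosphate synthase gene SPSC to 0.25 for the sucrose synthase gene SUS4. SUS1, also a sucrose synthase gene, was the 1 gene of the 60 with all epiRIL12 values above all Col values (0.21, SE 0.09, limma adjusted p = 0.717), and cyFBP, the cytosolic fructose bisphosphatase of sucrose synthesis, lay wholly below (-0.23, SE 0.11).

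SEN1, DIN10 and ASN1, known to be induced in the dark or by sugar starvation, were among the genes with the lowest differences of the 60. DIN10 stood at 8.99, 9.36 and 9.14 in epiRIL12, against 9.89, 9.60 and 9.56 in Col, so that the log2 difference stood at -0.52 (SE 0.14; adjusted p = 0.351 in limma, unadjusted 0.00816). ASN1, an asparagine synthetase gene, stood at 7.32, 7.66 and 7.28 in epiRIL12, against 7.82, 7.73 and 7.92 in Col, which is -0.41 for epiRIL12 minus Col on the log2 scale (SE 0.13, limma adjusted p = 0.516, unadjusted 0.0176). Both had all epiRIL12 values below all Col values. SEN1 had the lowest difference of the 60, -0.74, but its values overlapped and its SE was 0.41. The other members of this list were near 0, among them NF-YC4, the binding partner of QQS, at -0.13 (SE 0.10), the SnRK1 kinase genes KIN10 (-0.09) and KIN11 (-0.05), and TPS1, a trehalose 6-phosphate synthase gene, at 0.10, the highest.

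Many starch genes follow the time of day, and the labels give no harvest time. Of 9 clock genes, 0 were called, 7 had a difference below 0 (77.8%, against 56.6% of all loci), and the median was -0.19. CCA1 (0.11, SE 0.09) and LHY (0.14, SE 0.11) lay above 0. PRR5 (-0.43, SE 0.23), ELF4 (-0.34), LUX (-0.31, SE 0.12, limma adjusted p = 0.657, unadjusted 0.0375), GI (-0.22, SE 0.10), PRR9 (-0.19), PRR7 (-0.15) and TOC1 (-0.07) lay below it. The groups were apart for CCA1, which was higher in epiRIL12, and for LUX, GI and PRR7, which were lower. Over all loci 5.19% were apart and higher, and 6.89% apart and lower. The part of harvest time in the starch gene values was not tested.

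The labels call the material whole seedlings in one field and rosette leaves in another. The leaf markers RBCS1A, LHCB1.3 and RCA stood at 14.4 to 15.5 on all arrays, with log2 differences of -0.03 to 0.01. The root markers PYK10, CASP1 and COBL9 stood at 5.59 to 9.10, with differences of -0.01 to 0.22; CASP1, at 0.22, had all epiRIL12 values above all Col values. The flower markers AP3 and AG stood at 4.90 to 6.53, with differences of 0.49 (SE 0.23) and 0.10, and the seed markers CRA1 and OLEO1 at 4.79 to 6.06, with differences of 0.19 and 0.0062. The part of tissue make-up in the starch gene values was not tested. None of these 10 markers was called. In such bulk samples fewer cells of a type and less RNA per cell cannot be told apart.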

How the data were processed

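Random-primed, amplified, double-stranded cDNA from rRNA-depleted RNA was hybridised to Affymetrix arrays, per the labels' protocols. The authors deposited 1 log2 value per locus and array; how the values were corrected for background and normalized, and the build, is not stated in the labels or files. The authors also deposited a log2 difference and a p-value per locus, whose test is likewise not stated. The value table numbers its loci, so names were taken by position from that second table; Pearson's r between differences of group means and the authors' differences was 0.967 in place and 0.166 shifted by 1 position, which also sets the sign as epiRIL12 minus Col. Symbols and overlaps came from RefSeq TAIR10.1 (29521 of 29670 loci matched).

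Genotypes were compared per locus by limma 3.58.1 under R 4.3.3 (lmFit and eBayes with genotype alone in the model, two-sided and unfiltered), adjusted by Benjamini-Hochberg over all loci, and tested on simulated data. Plots used matplotlib 3.10.9. Named were the 10 members, genes of each further list called, at an unadjusted p under 0.05, or highest or lowest, the 5 neighbours on each side of QQS, the 3 loci most like it, and marker and clock genes; others were chosen after their values were seen. Members and lists were chosen with earlier results of these data known. Alternatives tried were quantile normalization, a block for the replicate number, centring on array medians, filters on low values, a trended robust eBayes, other adjusted p limits and leaving out arrays.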

Additional observations from a re-analysis of the deposited data

How the results depend on the processing

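No member and no gene of the further starch and sugar lists was called in any setting tried. The log2 difference of QQS stayed between -1.82 and -0.76 (limma adjusted p 0.192 to 0.886), with -1.82 to -1.07 when 1 array was left out. Of 126 results for the 9 enzymes under the alternatives, 8 changed sign, from main values of -0.02 to -0.10. With 1 array left out the differences ran from -0.091 to 0.0076 for ADG1, from -0.048 to 0.028 for APL1, from -0.10 to 0.025 for SBE2.2 and from -0.17 to 0.0068 for SEX4. Without both arrays numbered 3 they were 0.00070 for APL1 and 0.068 for SBE2.2. The count of all called loci, 289, was 212 to 239 with 1 array left out, 296 when the dimmest 25% of loci were dropped, 109 when the dimmer 50% were, 151 without both arrays numbered 3, where fewer arrays were used, and 138 with the authors' deposited p-values after adjustment; the causes of the lower counts at 109 and 138 were not tested. Replicate numbers were not treated as pairs: deviations of same-numbered arrays correlated at -0.04, -0.07 and 0.13, and only arrays numbered 3 correlated best with each other. With the replicate block 210 loci were called, 0 of them members, and QQS had an adjusted p of 0.643 at the same difference of -1.41. Median centring moved the share of all loci below 0 to 63.0%, from 56.6%, and that wholly below Col to 8.93%. No background level was given, so signal over background is unknown, and 3 arrays per genotype limit what difference could be called.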
